A study of Mus musculus with 4 samples.

Results

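The Gdf10/Cytl1 chondrocytes are cartilage cells of the embryonic mouse knee region that carry UMIs (sequenced messenger RNA molecules) of the secreted factors Gdf10 or Cytl1. They were chosen by measured values: at least 2 UMIs of Gdf10 and Cytl1 together, at least 3 UMIs of the cartilage collagen gene Col2a1, no UMI of the later chondrocyte genes Ihh, Panx3 and Col10a1, and at most 1 UMI of the joint gene Gdf5. Of 44320 cells with 200 to 6000 genes and at most 10% of UMIs from mitochondrially encoded genes, 15423 met this rule. Gdf10 (ENSMUSG00000021943) lies at chr14:33923587-33937983 on the plus strand of GRCm38, and Cytl1 (ENSMUSG00000062329) at chr5:37735519-37739820 on the plus strand.

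Long bones begin as cartilage templates whose ends, the epiphyses, keep small round chondrocytes while cells nearer the middle stop dividing, switch on Ihh and then Col10a1, and enlarge. Between the ends of neighbouring templates lies the interzone, a layer that expresses Gdf5 and lowers cartilage matrix genes. Gdf10 is a member of the bone morphogenetic protein family, Cytl1 is a small secreted protein of cartilage, and Barx1 and Cnmd are a homeobox factor of the jointward cartilage and a matrix glycoprotein that keeps vessels out of cartilage.

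The study asked how glucose uptake bears on joint formation, and sequenced single cells by the droplet method of 10x Genomics from the presumptive knee joint of hindlimbs. Embryos were at E13.5 or E14.5, and the dissected tissue was digested with collagenase. Each of 4 groups was 1 library: E13.5 control, E14.5 control, E14.5 Prx1cre;Glut1f/f;Glut3f/+ and E14.5 Prx1cre;Glut1f/f;Glut3f/f. Prx1Cre acts in limb bud mesenchyme, from which cartilage and joint cells descend but muscle, vessel and blood cells do not. The letter f marks a floxed allele of the glucose transporter genes Glut1 (Slc2a1) or Glut3 (Slc2a3). Both controls are titled WT, and the study describes its E14.5 control embryos as without Cre. The number of embryos pooled into each library is not given in the sources used here. The 2 mutant libraries are called by their last allele, as the libraries labelled Glut3f/+ and Glut3f/f; both are also labelled Glut1f/f.

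The libraries held 100344565, 84188147, 97110697 and 91574038 UMIs in 12769, 9707, 11690 and 11602 barcodes, in the order given, and that order holds for every set of 4 values. With 1 library per group there are no replicates, so no test of a difference between groups was possible. Values are UMIs summed over cells, as counts per 1000000 UMIs (CPM), with exact Poisson intervals; ratios carry exact conditional binomial intervals and shares exact Clopper-Pearson intervals, all at 95% and for counting error only.

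Sex and the targeted gene set limits on every comparison of libraries. Xist, the RNA of the inactive X chromosome, was found in 64.7%, 0.172%, 92.2% and 91.2% of kept cells, and Y-linked genes in 18.4%, 65.9%, 0.0355% and 0.0265%. The E13.5 control thus held cells of both types, the E14.5 control nearly only Y-bearing cells and both mutant libraries nearly only Xist-bearing cells. Sex therefore cannot be told apart from genotype. For age, sex composition differed between the controls, and the Y-bearing cells of the E13.5 control were not compared on their own. Slc2a1 (ENSMUSG00000028645, chr4:119108711-119137983, plus strand) was counted at 70.4 (65.7 to 75.3), 80.8 (78 to 83.6), 423 (417 to 429.8) and 444 (438 to 451) CPM in Gdf10/Cytl1 chondrocytes. Its UMIs were therefore higher, not lower, in the 2 libraries labelled Glut1f/f; UMIs read near the 3′ end can lie outside a deleted stretch, so these counts check neither the deletion nor the labels.

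Gdf10/Cytl1 chondrocytes were a small share of the E13.5 control and a large share of every E14.5 library. They numbered 1341 of 12446 kept cells (10.8%, 95% CI 10.2 to 11.3) in the E13.5 control and 4450 of 9305 (47.8%, 46.8 to 48.8) in the E14.5 control. The library labelled Glut3f/+ held 4384 of 11264 (38.9%, 38.0 to 39.8), and the library labelled Glut3f/f 5248 of 11305 (46.4%, 45.5 to 47.3). Among cells that met the Col2a1, Ihh, Panx3, Col10a1 and Gdf5 limits they made up 36.7% (35.2 to 38.3), 81.4% (80.4 to 82.4), 74.0% (72.9 to 75.1) and 71.6% (70.6 to 72.6). Their median depth was 7519, 8012, 7913.5 and 7509.5 UMIs, with 2729, 2697, 2590 and 2477 genes. When each cell was first thinned at random to 2000 UMIs, with 1123, 598, 782 and 857 shallower cells left out, the shares were 4.62% (4.24 to 5.02), 35.5% (34.4 to 36.5), 25.5% (24.7 to 26.4) and 27.8% (27.0 to 28.7). Thinning takes away UMIs that the rule needs, so every share was smaller, while the order of the 4 libraries was the same with and without it.

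The rule was also met by some cells that carry markers of other lineages. Among muscle-marker cells (at least 2 UMIs of Myod1, Myog and Myf5) 12 of 640, 15 of 211, 28 of 307 and 5 of 72 passed, and among macrophage-marker cells (at least 3 UMIs of C1qa, C1qb and C1qc) 1 of 26, 7 of 53, 5 of 65 and 4 of 42. Endothelial-marker cells (at least 2 UMIs of Pecam1 and Cdh5) passed in 2 of 68, 2 of 33, 4 of 70 and 6 of 82 cases, and erythroid-marker cells (at least 30% hemoglobin UMIs) in 0 of 39, 5 of 70, 4 of 33 and 1 of 26. The highest of these shares were 13.2% (5.48 to 25.3) of macrophage-marker cells in the E14.5 control, at a median of 6724 UMIs against 8012 in members, and 12.1% (3.403 to 28.2) of erythroid-marker cells in the library labelled Glut3f/+, at 7651 against 7913.5. Any pair of libraries shared 25 to 40 barcodes, of which 0 to 8 were members in both.

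**Figure D1:**
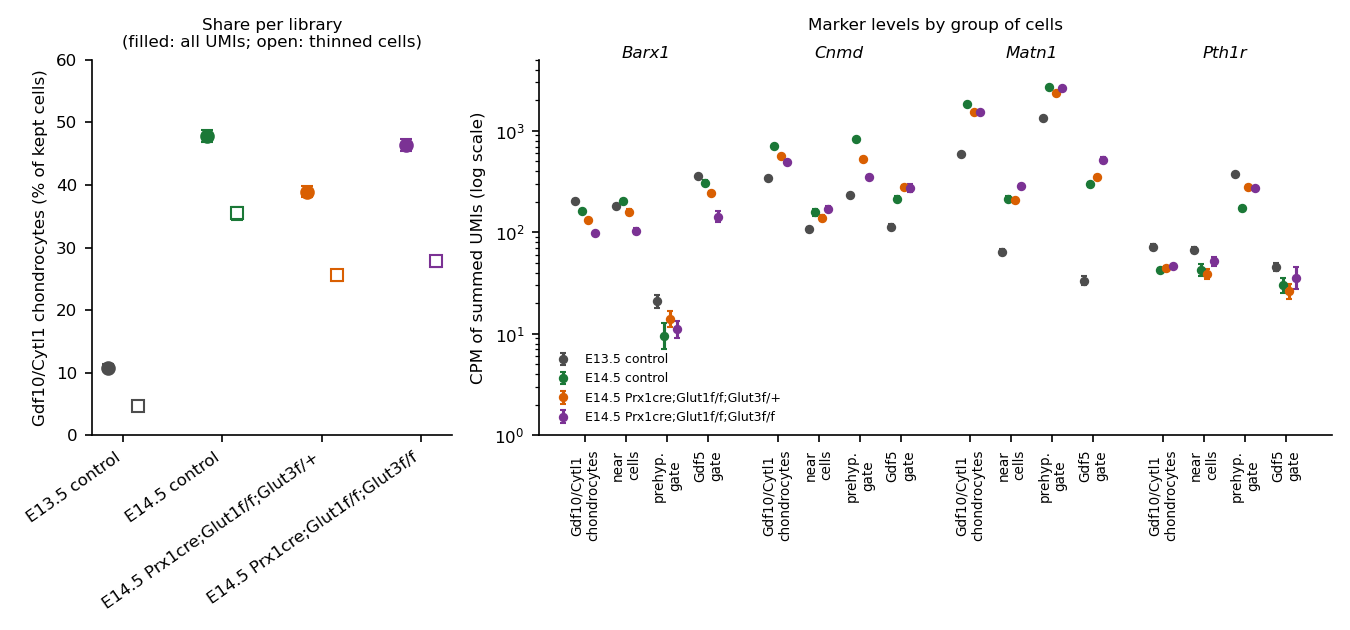
Left, share of kept cells that were Gdf10/Cytl1 chondrocytes in each of the 4 libraries, from all UMIs (filled) and after thinning to 2000 UMIs (open), with exact 95% intervals. Right, CPM on a log scale of Barx1, Cnmd, Matn1 and Pth1r in 4 groups of cells with exact Poisson 95% intervals: Barx1 is not highest in the Gdf10/Cytl1 chondrocytes, while Pth1r is highest in the prehypertrophic gate.

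The name epiphyseal immature chondrocyte rests on Gdf10, Cytl1, Barx1 and Cnmd, and the data fit it only in part. The genes that chose the cells were, as a description, at 173, 158, 151 and 127 CPM for Gdf10, 387, 1206, 935 and 818 for Cytl1 and 2515, 5891, 5521 and 4888 for Col2a1. Cnmd, which the rule did not use, was at 344, 712, 559.7 and 491 CPM, against 107, 157, 137 and 171 in near cells, defined as cells that met every other limit of the rule but had no UMI of Gdf10 or Cytl1. After thinning of the chosen cells, Cnmd was found in 45.1, 70.7, 63.4 and 58.8% of members. In the prehypertrophic gate, defined below, the shares were 32.1, 78.1, 60.8 and 46.8%. Cnmd thus set members apart from near cells, but the gate's share was above that of members in the E14.5 control and below it elsewhere. Barx1 was at 203, 164, 131 and 98.1 CPM in Gdf10/Cytl1 chondrocytes and at 181, 202, 158 and 103 in near cells, so it did not set the chosen cells apart from near cells. In cells of the Gdf5 gate (at least 2 Gdf5 UMIs and no UMI of Ihh, Panx3 or Col10a1) Barx1 reached 355, 309, 244 and 143 CPM, above the members in every library. The cells are therefore called by their genes.

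Across the threshold, levels changed in steps rather than at a break. Cells just outside it, with 1 UMI of Gdf10 and Cytl1 together, numbered 625, 353, 540 and 764, and cells just inside it, with 2 UMIs, 369, 287, 463 and 630. Matn1, a cartilage matrix protein, was at 64.4, 215, 206 and 286 CPM with 0 UMIs, 188, 727, 569 and 698 with 1, 364, 1080.01, 792 and 1009 with 2 and 595, 1856, 1549.99 and 1538 in all members. Cnmd was at 195, 367, 281 and 301 CPM just outside and 280.1, 546, 339 and 393 just inside. Both genes thus stood higher at each step from near cells to members, in all 4 libraries.

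Compared with near cells, Gdf10/Cytl1 chondrocytes carried more RNA of cartilage matrix genes and less of genes known from the interzone and from connective tissue. At least 2-fold higher in all 4 libraries were 49 of 5448 genes (0.899%), and at least 2-fold lower were 27 (0.496%), among genes at 20 CPM and 20 UMIs or more in either group. With cells thinned to 2000 UMIs before the rule, both counts were 0. In the single libraries without thinning, of 6288, 6281, 5894 and 5759 genes, 79, 194, 130 and 93 were higher and 66, 329, 169 and 137 lower. In each E14.5 library alone, more genes were thus lower than higher. Since the rule is part of this contrast, these counts describe the chosen cells and test nothing. Of a list of cartilage matrix genes without Col2a1, 17 of 17, 18 of 19, 17 of 18 and 17 of 18 measured genes were higher, with median log2 ratios of 1.76, 2.12, 1.702 and 1.34, beside -0.02, -0.04, -0.01 and 0.02 over all genes tested. Of interzone and joint genes, 14 of 15, 11 of 14, 11 of 13 and 11 of 13 were lower, with medians of -0.96, -1.92, -1.495 and -1.06.

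The genes furthest above near cells, without thinning, included several of the matrix list and others outside it. Cmtm5 was at 71.5, 148, 105 and 114 CPM against 11, 12.6, 14.4 and 20.7. Matn1 had log2 ratios of 3.21, 3.11, 2.91 and 2.43. Snorc, a small transmembrane proteoglycan of cartilage, was at 150.1, 498, 369 and 429.7 CPM against 14.3, 133, 60.6 and 90.7. Each of the 3 was higher in members in every library, and for Matn1 the ratio was largest in the E13.5 control. Comp, a pentameric matrix protein that binds collagen, was at 24.2, 178, 176 and 173 CPM against 6.92, 18.1, 32.4 and 33.1. Epyc, a small leucine-rich proteoglycan of cartilage, was at 25.7, 167, 149 and 109 against 5.901, 49.2, 36 and 31.1, but with thinning before the rule its smallest-size ratio turned to -0.33. Matn3, Chad, Susd5, Gal3st1, Fxyd3, Lgals3 and Col11a2 were also among the 15 genes with the largest smallest-library ratio, from 2.32 for Matn3 to 1.58 for Col11a2. Aggrecan (Acan) was at 300.003, 837, 876 and 809.8 CPM against 75.2, 191, 291 and 317, and the link protein gene Hapln1, which fixes aggrecan to hyaluronan, at 241, 835, 646 and 615 against 42, 149.8, 209.7 and 244. Of genes for glycosaminoglycan and sugar-nucleotide synthesis, which build the side chains of such proteoglycans, 17 of 20, 18 of 22, 17 of 20 and 19 of 19 were higher, with medians of 0.39, 0.48, 0.49 and 0.59.

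Sox9 and Sox5 differed less from near cells than the median gene of the matrix list, with log2 ratios of 0.53, 0.82, 0.67 and 0.19 and of 0.90, 1.54, 1.06 and 0.95. Sox9, the factor that starts cartilage formation, was at 518, 516, 501 and 331 CPM in members and 359.9, 292, 314 and 291 in near cells. Sox5, its partner, was at 212, 263, 227 and 209 against 113, 90.4, 109 and 108. Fgfr3, a receptor that restrains chondrocyte division, was at 73.8, 85.6, 98.3 and 97.4 against 20.8, 16.9, 55.5 and 97.1, a gap that was wide in both controls and absent in the library labelled Glut3f/f.

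Lower genes included several of the joint region. Tm4sf1 was at 7.66, 19.9, 11.3 and 5.83 CPM against 41.8, 118, 48.5 and 21.2 in near cells. Gas1, which binds hedgehog proteins at the cell surface, was at 148, 109, 93.7 and 61.5 against 462, 505, 336 and 173, and Sfrp2, a secreted Wnt regulator, at 213, 131, 169 and 113 against 667, 857, 550.002 and 289.9. Creb5, a transcription factor of the interzone, was at 59.4, 42.5, 44.8 and 30.6 against 172, 147, 119 and 78.4. The tendon factor Scx was at 35, 13, 15.6 and 12.3 against 81.3, 139, 75.3 and 48.3. All 5 were lower in members in every library, and fibroblast markers as a list had medians of -0.68, -1.57, -1.12 and -1.16. Depth bears on this contrast directly: near cells had medians of 6362, 6870, 6058 and 5170.5 UMIs, and of cells called near after thinning 19.1%, 46.7%, 40.5% and 39.0% were members on all their UMIs. With thinning before the rule the smallest-size ratios were 0.22 for Matn1 and 0.24 for Cnmd. TMM scaling, which replaces total UMIs by a trimmed mean over genes, moved the ratios of the 3 E14.5 libraries by 0.17, 0.11 and 0.11 and changed the sign of no list median given.

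Against the prehypertrophic gate (Col2a1 of 3 or more UMIs and at least 2 of Ihh, Panx3 and Col10a1 together; 715, 272, 456 and 552 cells), Gdf10/Cytl1 chondrocytes were richer in Barx1, Boc, Foxp1 and Foxp2 and poorer in maturation genes. At least 2-fold higher in all 4 libraries were 79 of 5350 genes (1.48%), and lower 55 (1.03%). In the single libraries 180, 315, 209 and 324 genes were higher and 212, 189, 212 and 155 lower. Ihh, Panx3 and Col10a1 define both groups, so these counts too are a description. Barx1 was at 20.9, 9.57, 13.9 and 11.1 CPM in the gate, with log2 ratios of 3.28, 4.08, 3.23 and 3.14. Ranked by the smallest ratio over the 4 libraries, it came first among the higher genes. Boc, a co-receptor for hedgehog, was at 91.3, 111, 93.3 and 75.1 CPM in members against 14.8, 12.5, 16.5 and 12.6. The forkhead factors Foxp2 and Foxp1 were at 215, 131, 106 and 101 and at 68.5, 94.1, 91.6 and 63.6 in members, against 50.5, 27.3, 24.7 and 23.9 and 20.3, 15.2, 17.8 and 11.4. Osr2, a zinc finger factor of the joint region, was at 57.2, 43.1, 46.8 and 25.4 against 17.1, 10.2, 8.15 and 6.51, and Vcan, the large proteoglycan of precartilage, at 455, 193, 218 and 195 against 117, 37.9, 45.9 and 31. All 6 genes were higher in members than in the gate in each library.

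Of genes known from prehypertrophic and hypertrophic chondrocytes other than those of the rule, 11 of 11, 11 of 11, 12 of 13 and 9 of 10 were lower in members, with medians of -2.21, -2.02, -2.19 and -1.18 beside 0.06, 0.07, 0.05 and 0.13 over all genes. Smpd3, a sphingomyelinase needed for skeletal mineralization, was at 1.01, 1.17, 0.994 and 0.870 CPM in members against 177, 164, 265 and 161. Pth1r, the receptor for PTHrP, was at 71.9, 42.3, 44.1 and 46 against 373, 172, 279 and 271. Smpd3 was thus close to absent from the members while Pth1r was at a low level in them. The matrix list was lower in members here, with medians of -1.06, -0.47, -0.60 and -0.60, and Matn1 reached 1328, 2678, 2375 and 2641 CPM in the gate. Matn4 ran the other way at E14.5, at 1176, 1460.1, 1285 and 1582 CPM in members against 1149, 656, 796 and 818. Of hedgehog and PTHrP pathway genes 5 of 7, 5 of 7, 5 of 7 and 6 of 7 were higher in members, with medians of 0.51, 0.93, 0.97 and 1.21, although Pth1r was lower in every library and Ptch1 in the first 3, while ER chaperones and targets of ATF4, the factor of the amino acid response, were lower, with medians of -0.31, -0.42, -0.91 and -0.84 and -0.20, -0.33, -1.21 and -0.89. The gate's cells were deeper, with medians of 10895, 17899.5, 18059 and 15203 UMIs, and TMM scaling moved the ratios of the library labelled Glut3f/f by -0.15 without a change in the sign of the list medians given.

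Against the Gdf5 gate (1409, 563, 593 and 205 cells), Gdf10/Cytl1 chondrocytes again held more matrix RNA and much less RNA of joint genes. At least 2-fold higher in all 4 libraries were 30 of 5640 genes (0.532%), and lower 114 (2.02%). Gdf5 helps define both groups, and only members had to carry at least 3 UMIs of Col2a1, which bears on matrix RNA. The counts and list medians against this gate are therefore a description too. Epyc was at 1.81, 15.2, 23.8 and 18.9 CPM in the gate, with log2 ratios of 3.79, 3.45, 2.64 and 2.51. Trpv4, a calcium channel of cartilage, was at 24.3, 60.8, 56 and 49.9 CPM in members against 6.74, 19.1, 23.6 and 18.9. Fgfr3 was at 15.1, 19.8, 29.5 and 40.1 in the gate and Matn4 at 202, 333, 440.2 and 678. For all 4 genes the members were higher in each library, and the matrix list had medians of 1.696, 1.78, 1.25 and 0.89, which were smaller in the mutant libraries than in the controls.

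On the other side, Inhba, which encodes an activin subunit, was at 5.56, 7.82, 5.92 and 2.41 CPM in members against 95.3, 149.5, 103 and 45.7 in the Gdf5 gate. Plxna4, a semaphorin receptor, was at 2.86, 2.16, 2.24 and 1.43 against 42.4, 54.1, 38 and 22.3. Creb5 was at 422, 330.4, 331 and 220.1 in the gate and Osr2 at 411, 264, 215 and 120.4, and both were lower in members in every library. Interzone genes as a list had medians of -2.16, -3.17, -2.74 and -2.25, beside -0.01, -0.09, -0.09 and -0.10 over all genes. Glycolysis genes were close to even in the E13.5 control and higher in members of the later libraries, with medians of -0.06, 0.20, 0.36 and 0.62, and hypoxia genes had -0.20, -0.00, 0.65 and 0.64. TMM scaling moved the ratios of the 3 E14.5 libraries by 0.20, 0.19 and 0.23, which changes the sign of no list median given there but the near-0 hypoxia median of the E14.5 control. In the E13.5 control it moved them by 0.07, enough to bring the glycolysis median of -0.06 to about 0.

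Within the Gdf10/Cytl1 chondrocytes, cells with only Gdf10 were rarer than cells with only Cytl1, and more so at E14.5. Gdf10-only cells (2 or more Gdf10 UMIs and none of Cytl1) numbered 220, 58, 94 and 127, or 16.4%, 1.30%, 2.14% and 2.42% of members. Cytl1-only cells numbered 440, 1695, 1662 and 2322, or 32.8%, 38.1%, 37.9% and 44.2%. The remaining 50.8%, 60.6%, 59.9% and 53.3% had both genes. Median depth was 7598.5, 8365, 7881 and 6934 UMIs in Gdf10-only and 6878, 7905, 7746.5 and 7435 in Cytl1-only cells. It was thus higher in Gdf10-only cells in every library but that labelled Glut3f/f.

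Gdf10-only cells had less matrix RNA, and few genes were higher in them in all 4 libraries. At least 2-fold higher in all 4 libraries were 4 of 5230 genes (0.0765%), Crabp1, Palld, Ebf3 and Cxcl12, and 11 (0.21%) were lower. In the single libraries, of 6356, 5755, 5872 and 5796 genes, 54, 180, 218 and 125 were higher and 55, 106, 82 and 40 lower. In each E14.5 library alone, more genes were thus higher than lower. Crabp1, which binds retinoic acid in the cytoplasm, was at 359, 221, 201 and 152 CPM against 117, 38.1, 38.6 and 42.2 in Cytl1-only and 161, 36.3, 35.7 and 45.1 in double cells. Ebf3, a helix-loop-helix factor, was at 37.8, 45.1, 47.7 and 31.1 against 17.8, 6.51, 10.2 and 6.26, and the chemokine Cxcl12 at 61.9, 48.5, 81.8 and 21.8 against 24.3, 11.6, 18.3 and 10.5. Palld, an actin-binding protein, was at 108, 104, 86.3 and 62.2 against 50.1, 31.6, 38.6 and 29. For Crabp1 the double cells resembled the Cytl1-only cells in all E14.5 libraries and lay between the 2 kinds at E13.5.

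Comp was at 8.84, 38.5, 45.4 and 38.3 CPM in Gdf10-only, 21.3, 142, 143 and 118 in double and 38.2, 245, 241 and 253 in Cytl1-only cells, higher at each step in every library. Lgals3, a galactose-binding lectin, was at 9.82, 60.2, 73.8 and 115, 39.8, 289, 229 and 253 and 79, 381, 319.7 and 428 in the same order of cells. Matn3, a matrilin of growth cartilage, was at 21.6, 33.4, 19.3 and 23.8 against 49.3, 141, 82.2 and 74.9 in the single kinds. The matrix list as a whole was lower in Gdf10-only cells in 14 of 16, 18 of 19, 17 of 18 and 15 of 17 genes, with medians of -0.42, -0.78, -0.75 and -0.31 beside 0.05, 0.04, 0.12 and 0.15 over all genes. Fibroblast markers, all 8 of which had UMIs, summed to 1520.04, 3629, 3185 and 2213 CPM against 1229, 1721, 1509 and 1411, led by Col1a2 or Col3a1. Muscle markers summed to 342, 33.4, 25 and 9.32 CPM against 31.1, 13.2, 53.7 and 10.7, and macrophage markers to 0.491, 3.34, 239.7 and 48.7 against 3.11, 23, 3.25 and 10.3. Gdf10-only cells thus had far more muscle marker RNA at E13.5, led by Mylpf, and a higher macrophage marker sum in both mutant libraries, led by C1qb and by Tyrobp. In the library labelled Glut3f/f, C1qa, C1qb and C1qc had no UMI in Gdf10-only cells, and Tyrobp made up 31.1 of the 48.7 CPM. In Cytl1-only cells of that library all 6 macrophage markers had UMIs, led by C1qc at 4.24 CPM. The part of the muscle and macrophage markers in the differences was not tested.

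Of the 11 lower genes, 4 were hemoglobin genes. Hba-a1 was at 7.86, 10.03, 2.27 and 4.14 CPM in Gdf10-only against 184, 293, 450.1 and 122 in Cytl1-only cells. Nearly all members' hemoglobin RNA sat in few cells: 1, 9, 17 and 4 members with at least 1% hemoglobin UMIs held 89.96%, 95.1%, 97.9% and 94.2% of it. Without cells carrying UMIs of other types, an alternative chosen after seeing the data, 2 genes were higher and 7 lower, and with thinning before the rule 0 were higher and 2 lower. TMM scaling moved the E14.5 ratios by -0.15, -0.18 and -0.19 and left 2 genes higher.

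The comparison of the E14.5 with the E13.5 control asks how Gdf10/Cytl1 chondrocytes differ by a day of development. Their matrix genes were higher at E14.5, and most of their S, G2 and M phase genes were lower, each by less than 2-fold. At least 2-fold higher were 169 of 6235 genes (2.71%), and at least 2-fold lower 181 (2.9%); with a minimum of 100 UMIs and no CPM minimum they were 384 and 355. TMM scaling moved every ratio by 0.16, which turned the small medians of glycolysis genes (-0.10 to 0.06) and ER chaperones (-0.11 to 0.06) from lower to higher. The median over all genes was -0.12.

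All 19 measured matrix genes were higher at E14.5, 16 of them at least 2-fold, with a median of 1.54, beside 0.89 in near cells, 0.81 in the prehypertrophic gate and 1.35 in the Gdf5 gate. Comp went from 24.2 CPM at E13.5 to 178 at E14.5, a log2 ratio of 2.88 (95% CI 2.71 to 3.06). Epyc went from 25.7 to 167, a ratio of 2.696 (95% CI 2.53 to 2.87). Acan was at 300.003 and 837, and Col11a1, a chain of the thin cartilage fibril, at 855 and 2512. Sox9 did not follow its matrix genes, at 518 and 516 CPM. Ucma, a small protein secreted by resting and upper-zone chondrocytes, was at 1.68 and 26 CPM, and 5 of 6 measured genes of that zone were higher, with a median of 0.84. Ucma counts in both the matrix list and the list of that zone. It passed the 20 CPM minimum only through the E14.5 control, which fixed its direction.

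Among genes at 20 CPM or more in either group and not sex-linked, the largest difference was in Ecrg4, which encodes a secreted peptide precursor, at 8.76 CPM at E13.5 and 270.4 at E14.5 (log2 ratio 4.94). Near cells showed the same step, from 5.98 to 267 CPM. Lgals3 was at 46.3 and 319.8 CPM, a ratio of 2.79 (95% CI 2.66 to 2.91) beside 1.22 in near cells. C1qtnf3, a secreted protein of cartilage, was at 6.49 and 98.9, and S100b, a calcium-binding protein made by chondrocytes, at 12.9 and 99.5. Ndufa4l2, a mitochondrial protein induced in hypoxia, was at 14.8 and 111, and hypoxia genes as a list were higher in 10 of 15 cases, with a median of 0.36. Ecrg4, C1qtnf3, S100b and Ndufa4l2 passed the 20 CPM minimum only through the E14.5 control, which fixed their direction. Of the glycolysis genes, Hk2, the inducible hexokinase, had a ratio of 1.13 (95% CI 1.02 to 1.25), and Eno1, an enolase, one of -1.32 (95% CI -1.37 to -1.27), so the list held genes past 2-fold on both sides.

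Twist2, Runx2, Prrx2 and Hoxd11 were lower at E14.5. Twist2, a repressor of differentiation in mesenchyme, was at 117 CPM at E13.5 and 12 at E14.5, a log2 ratio of -3.28 (95% CI -3.43 to -3.13), beside -2.14 in near cells. Runx2, the factor of osteoblasts and maturing chondrocytes, was at 70.6 and 12.5, a ratio of -2.496 (95% CI -2.66 to -2.34) beside -0.95 in near cells. Runx1, its relative, was at 31.1 and 84.7 and so moved the other way. Prrx2, a homeobox factor of limb mesenchyme, was at 53.1 and 8.78, and Hoxd11, which patterns the middle limb, at 24.8 and 3.52. Over the list of skeletal transcription factors 14 of 21 were lower, with a median of -0.31. Nnat, an imprinted membrane protein, was at 365 and 48.3, and Gstp1, a glutathione transferase, at 57.8 and 5.91. Twist2, Runx2, Prrx2, Hoxd11 and Gstp1 passed the 20 CPM minimum only through the E13.5 control, which fixed their direction.

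Among signalling genes, Wnt5a, a Wnt of the growing limb, had a ratio of -1.46 (95% CI -1.62 to -1.302) and Rspo3, which strengthens Wnt signals, one of -1.41 (95% CI -1.64 to -1.17). These 2 do not stand for their list: of Wnt pathway genes 4 of 7 were higher, with a median of 0.14, which turned to -0.02 with thinning before the rule and to -0.27 with a minimum of 100 UMIs. Tgfb2, a ligand of the Tgfb family, was at 76.4 and 35.7 CPM. The 5 measured Bmp and Tgfb receptors were all lower, with a median of -0.35, and of Bmp and Tgfb targets 7 of 9 were lower, with a median of -0.26.

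Most cell cycle genes were lower in members at E14.5, none of those on the lists by 2-fold. Of S phase genes 18 of 19 were lower, with a median of -0.52, and of G2 and M phase genes 20 of 20, with -0.57. In the prehypertrophic gate the latter had a median of 0.42, the other way. Outside these lists, Hist1h2ap, a replication-dependent histone gene, was at 548 and 43.8 CPM. Stmn1, a microtubule regulator of dividing cells, was at 1135 and 508.

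Genes of cell stress during dissociation and markers of other cell types moved as well. Of immediate-early genes 16 of 17 were higher, 6 of them at least 2-fold, with a median of 0.80. All 20 had UMIs in members, and they summed to 4449 and 6833 CPM, led by Jund at E13.5 and by Fos at E14.5. Egr1 alone was at 228 and 497. Skeletal muscle markers summed to 105 and 29.4 CPM, led by Mylpf, and fibroblast markers to 1248 and 1739, led by Col3a1. Erythroid markers summed to 464 and 1431, led by Hbb-bs and held mostly by the few members already given, endothelial markers to 45.1 and 19.9, led by Egfl7, and macrophage markers to 2.02 and 12.6, with C1qb at 0 at E13.5. In the fibroblast list, Col1a1 and Postn were past 2-fold higher, with log2 ratios of 1.02 and 1.62, while Twist2 was lower, with -3.28. As sums, fibroblast, erythroid and macrophage markers were higher at E14.5 and muscle and endothelial markers lower. Whether any of these had a part in the age differences was not tested, and sex composition differed between these libraries too.

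**Figure D2:**
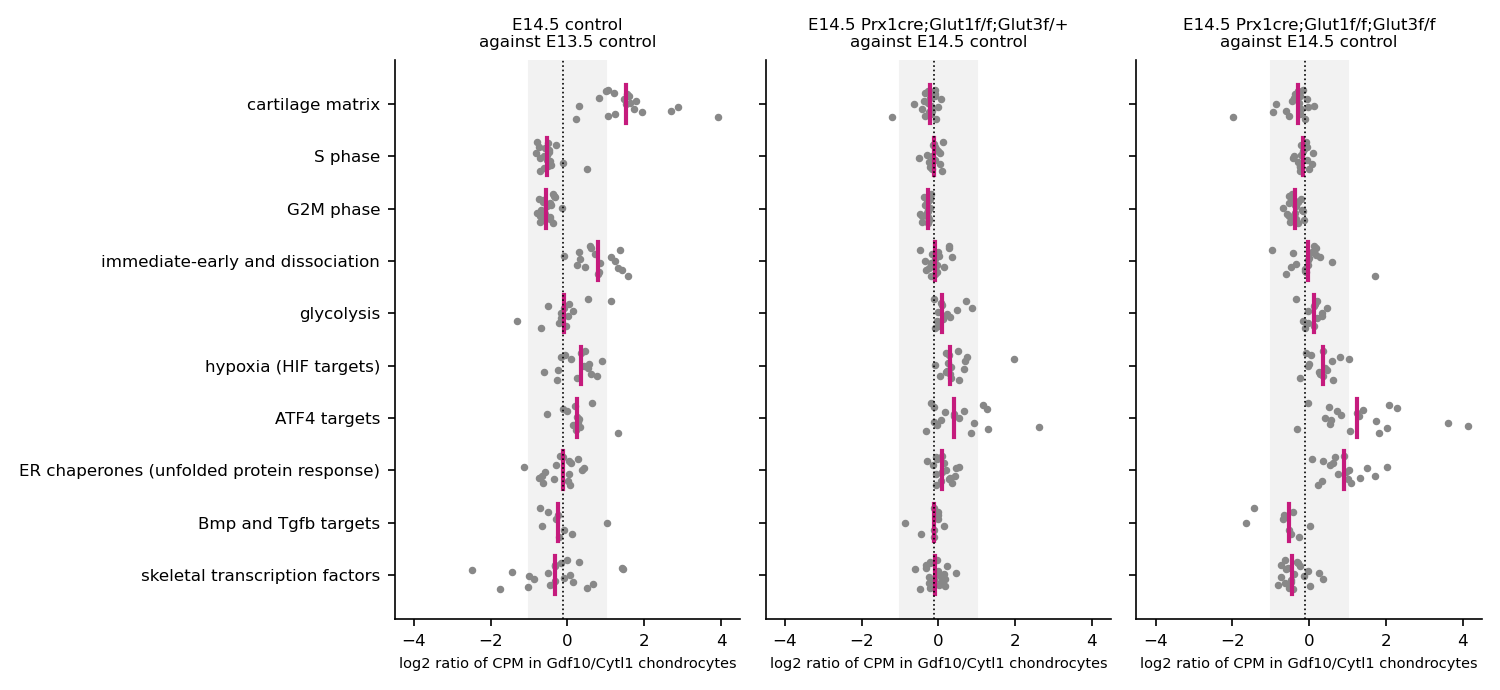
Log2 ratio of CPM (x axis) of each measured gene (grey points) of 10 gene lists in Gdf10/Cytl1 chondrocytes, for 3 library comparisons; pink bars are list medians, dotted lines the median over all genes and grey bands ratios under 2-fold. Cartilage matrix genes sit to the right at E14.5 (median 1.54), and ATF4 targets and ER chaperones in the library labelled Glut3f/f (1.26 and 0.90).

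The mutant libraries were each compared with the E14.5 control to ask how these chondrocytes differ with the labelled loss of glucose transporters; both comparisons share that control. The targeted gene comes first. Slc2a1 UMIs in Gdf10/Cytl1 chondrocytes were higher, with log2 ratios of 2.39 (95% CI 2.34 to 2.44) in the library labelled Glut3f/+ and 2.46 (95% CI 2.41 to 2.51) in the library labelled Glut3f/f. The same ratios were 3.42 and 3.66 in near cells, 2.27 and 2.57 in the prehypertrophic gate and 2.33 and 2.28 in the Gdf5 gate. At 2000 UMIs per cell, Slc2a1 was detected in 13.1, 15.1, 49.8 and 53.4% of members, and from all UMIs in 41.8, 47.5, 84.2 and 87.3%. In lineages without Prx1Cre activity the share after thinning was 5.52, 4.67, 8.14 and 8.77% of muscle-marker, 13.9, 19, 17.5 and 24% of endothelial-marker and 5.73, 4.38, 19.96 and 20.5% of macrophage-marker cells. Detection was thus higher in both mutant libraries in muscle-marker and macrophage-marker cells too. Slc2a3 was low everywhere, at 4.801 (3.64 to 6.22), 2.903 (2.401 to 3.48), 3.85 (3.27 to 4.51) and 1.46 (1.13 to 1.85) CPM, with ratios of 0.41 (95% CI 0.05 to 0.77) and -0.99 (95% CI -1.45 to -0.55); it was lowest in the library labelled Glut3f/f.

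In the library labelled Glut3f/+, where Slc2a1 UMIs were higher than in control, few genes in Gdf10/Cytl1 chondrocytes differed 2-fold at 20 CPM or more. Higher were 9 of 5808 genes (0.155%), among them Slc2a1 itself, genes of the amino acid response, metallothionein and Car9. Lower were 5 (0.0861%): Txnip, AI506816, Snhg3, C1qtnf3 and Ucma. With a minimum of 100 UMIs and no CPM minimum 65 were higher and 46 lower. Below 20 CPM, and so outside the first counts, other genes were more than 2-fold higher: Stc2, a secreted glycoprotein, at 1.26, 2.03, 13.8 and 16.1 CPM, the vessel-relaxing peptide gene Adm at 0.758, 0.819, 3.58 and 2.91, and Adm2 and Slc7a3. The median over all genes was -0.10. TMM scaling moved every ratio by 0.09, which turned the small list medians of skeletal transcription factors (-0.08 to 0.01), glycosaminoglycan synthesis (-0.07 to 0.01) and immediate-early genes (-0.08 to 0.01) from lower to higher.

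Nupr1, a stress-induced chromatin protein, was at 0.842, 6.18, 37.9 and 109 CPM in the 4 libraries, with a log2 ratio of 2.61 (95% CI 2.42 to 2.81) in the library labelled Glut3f/+. Asns, which makes asparagine, was at 43.7, 40.1, 96.5 and 196, with a ratio of 1.27 (95% CI 1.18 to 1.35). Eif4ebp1, an inhibitor of translation initiation, was at 60.5, 70.3, 173 and 288, and Atf5, a factor induced with ATF4, at 19.3, 18.4, 41.2 and 78.1. Each of these 4 genes was lowest in the controls, intermediate in the library labelled Glut3f/+ and highest in the library labelled Glut3f/f. The ATF4 target list was higher in 12 of 17 genes, 4 of them at least 2-fold, with a median of 0.40, beside 0.48 in near cells, 1.11 in the prehypertrophic gate and 0.10 in the Gdf5 gate. Of these 4, Nupr1 and Atf5 passed the 20 CPM minimum only through the mutant library, which fixed their direction.

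Mt1, a metal-binding metallothionein, was at 3.45, 11.6, 71.6 and 45.2 CPM, and Car9, a carbonic anhydrase induced by hypoxia, at 5.22, 9.95, 39.2 and 20.3. Both were higher in the library labelled Glut3f/+ than in the library labelled Glut3f/f, the reverse of the order for Nupr1 and Asns. In each mutant comparison Mt1 and Car9 passed the 20 CPM minimum only through the mutant library, which fixed their direction against control. Of hypoxia genes 15 of 16 were higher in the library labelled Glut3f/+, with a median of 0.32. Vegfa, the main vessel growth factor, had a ratio of 0.51 (95% CI 0.44 to 0.58), and Egln1, a prolyl hydroxylase that marks HIF for breakdown, one of 0.69 (95% CI 0.63 to 0.75). Myl9, a myosin light chain of contractile cells, also stood past 2-fold, at 1.77 (95% CI 1.62 to 1.92). Pfkp, a phosphofructokinase of glycolysis, reached 0.87 (95% CI 0.71 to 1.03), while the glycolysis list had a median of 0.08.

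Txnip, which glucose induces and which restrains glucose uptake, was at 11.3, 23.5, 2.26 and 2.37 CPM, with a ratio of -3.37 (95% CI -3.702 to -3.06). In near cells the ratio was -2.24, and in endothelial-marker cells Txnip was at 61.1, 102, 76.5 and 113 CPM. At 2000 UMIs per cell it was found in 2.35, 4.61, 0.426 and 0.481% of members, 13.3, 19.9, 16.2 and 21.1% of endothelial-marker, 2.35, 6.03, 4.02 and 2.902% of muscle-marker and 3.52, 12.2, 10.1 and 12.8% of macrophage-marker cells. It was thus lower than in the E14.5 control in muscle-marker cells of both mutant libraries as well. In endothelial-marker and macrophage-marker cells the direction in the library labelled Glut3f/+ depended on thinning, since from all UMIs the shares were 41.2, 45.5, 48.6 and 50% and 19.2, 26.4, 29.2 and 31%. Snhg3, a host gene of small nucleolar RNAs, was at 45.2, 49.1, 11.8 and 11.2 CPM in members, and AI506816 at 92.8, 89.9, 11.1 and 92.2, low only in the library labelled Glut3f/+. AI506816 was low there in muscle-marker cells too, at 42.7, 55.1, 19.2 and 59.8 CPM; the floxed Glut3 line came from C57BL/6N sperm, and neither strain differences between the libraries nor another cause was tested.

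C1qtnf3 and Ucma, both higher at E14.5 than at E13.5 in control, were at 6.49, 98.9, 37.3 and 18.9 and 1.68, 26, 11.2 and 6.54 CPM over the 4 libraries. The matrix list was lower in 18 of 19 genes, with a small median of -0.21, and the same median was 0.17 in near cells and 0.38 in the Gdf5 gate. G2 and M phase genes were lower in 20 of 20, with a median of -0.28, while S phase genes, with a median of -0.10, lay at the median over all genes. Sex cannot be told apart from genotype here; Slc7a3, an amino acid transporter gene among the ATF4 targets, lies on the X chromosome.

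In the library labelled Glut3f/f, where Slc2a1 UMIs were again higher than in control, Gdf10/Cytl1 chondrocytes had more RNA of ATF4 targets and of ER chaperones, and less of Bmp and Tgfb targets. At least 2-fold higher were 32 of 5797 genes (0.552%), and at least 2-fold lower also 32 (0.552%); with a minimum of 100 UMIs and no CPM minimum they were 104 and 125. The median over all genes was -0.12. TMM scaling moved every ratio by 0.14, which turned the small list medians of glycosaminoglycan synthesis (-0.07 to 0.07), immediate-early genes (-0.03 to 0.11) and cell death genes (-0.08 to 0.07) from lower to higher, and left 18 of the 32 lower genes.

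ATF4 targets were higher in 17 of 19 genes, 11 of them at least 2-fold, with a median of 1.26, beside 0.95 in near cells, 1.61 in the prehypertrophic gate and 0.75 in the Gdf5 gate. Among these 11, Nupr1, Atf5, Slc7a5, Slc7a3 and Gpt2 passed the 20 CPM minimum only through the mutant library, which fixed their direction. Slc7a3 and Gpt2 did not pass in the library labelled Glut3f/+, so the tallies of the mutant libraries are not over the same genes. Nupr1 had a log2 ratio of 4.13 (95% CI 3.95 to 4.32), and at 2000 UMIs per cell it was found in 0.143, 1.09, 5.07 and 14% of members over the 4 libraries. Its ratio was 5.71 in the prehypertrophic gate, 0.63 in near cells and 0.11 in the Gdf5 gate, so the ratio in members lay between that of the prehypertrophic gate and those of the other 2 groups. Asns had a ratio of 2.29 (95% CI 2.21 to 2.37), with 2.31 in near cells, and was found in 8.38, 7.25, 14.2 and 27% of thinned members.

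Other genes of the list serve amino acid uptake and synthesis. The transporter genes Slc7a3 and Slc7a5 were at 0.590, 1.61, 9.25 and 20.1 and at 9.01, 10.9, 20.8 and 36.8 CPM. Psat1, of serine synthesis, was at 27.4, 26.9, 43.1 and 70.7, and Mthfd2, of mitochondrial folate metabolism, at 69.3, 84.9, 123 and 208. Each of the 4 was highest in the library labelled Glut3f/f and intermediate in the library labelled Glut3f/+. Gpt2, an alanine transaminase, was at 9.601, 5.73, 12.3 and 20.3, and Trib3, a pseudokinase induced with the response, at 2.11, 5.86, 9.82 and 18.3. Outside the list, Aldh1l2, a mitochondrial folate enzyme, was at 1.94, 3.97, 16.4 and 28.9, Cth, which makes cysteine, at 10.3, 7.25, 13.3 and 23.9, and Adm2, a peptide hormone of the calcitonin family, at 0.421, 1.81, 10.4 and 20.9. These 3 were past 2-fold in the library labelled Glut3f/f too, and passed the 20 CPM minimum only through it. Atf4 itself differed little, at 223, 346, 301 and 336 CPM with a ratio of -0.04 (95% CI -0.07 to -0.01) that the TMM shift of 0.14 would bring above 0, and Ddit3, a factor of prolonged stress, was at 17.8, 20.5, 19.1 and 29.5, with ratios of -0.10 and 0.52.

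ER chaperones were higher in all 17 measured genes, 7 of them at least 2-fold, with a median of 0.90, while the library labelled Glut3f/+ had 11 of 17 higher and a median of 0.10. In near cells of the library labelled Glut3f/f the median was 0.04, in the prehypertrophic gate 1.28 and in the Gdf5 gate 0.55. Sdf2l1, an ER protein that works with the chaperone Hspa5, was at 36.5, 16.8, 24.3 and 69 CPM, with a ratio of 2.04 (95% CI 1.92 to 2.16). In each mutant comparison Sdf2l1 passed the 20 CPM minimum only through the mutant library, which fixed its direction in these tallies. Creld2, an ER stress-induced protein, was at 68.9, 43.4, 58.2 and 143, and Manf, a secreted ER stress protein, at 434, 262, 321 and 649. These 3 genes were lower in the E14.5 than in the E13.5 control and highest in the library labelled Glut3f/f. Herpud1, of ER-associated degradation, was at 55.1, 74.1, 102 and 209. Calr, a calcium-binding chaperone of glycoproteins, was at 521, 407, 491 and 821, and Hspa5, the main ER chaperone, at 768, 669, 716 and 1253, with a ratio of 0.90 (95% CI 0.88 to 0.93). Outside the ER, the heat shock gene Hspa1a was at 2.695, 7.87, 12.3 and 25.7, and it too passed only through the library labelled Glut3f/f.

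Bmp and Tgfb targets were lower in 8 of 9 genes, with a median of -0.52, beside -0.62 in near cells, -1.19 in the prehypertrophic gate and -0.68 in the Gdf5 gate. Id1, which blocks helix-loop-helix factors and responds to Bmp, was at 715, 434, 399 and 159.6 CPM, with ratios of -0.12 (95% CI -0.15 to -0.09) and -1.44 (95% CI -1.48 to -1.404). Id3, its relative, was at 1058, 884, 879 and 559.7. Smad7, an inhibitor induced by the pathway itself, was at 161, 174, 142 and 81.7. For these genes the difference from control was confined to the library labelled Glut3f/f or larger there. Ccn2, a matricellular protein induced by Tgfb, was at 27.4, 55.5, 30.6 and 17.8 and lower in both mutant libraries. Gadd45g and Gadd45b, stress-response genes, were at 112, 125, 82.7 and 42.3 and at 154, 239, 162 and 89.9, with ratios of -1.56 and -1.41 in the library labelled Glut3f/f.

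Sox9 and most skeletal transcription factors were lower as well. Sox9 was at 518, 516, 501 and 331 CPM over the 4 libraries, with ratios of -0.04 (95% CI -0.07 to -0.01) and -0.64 (95% CI -0.67 to -0.61). Of skeletal transcription factors 17 of 20 were lower in the library labelled Glut3f/f, with a median of -0.44, and none was past 2-fold. The matrix list was lower in 18 of 19 genes, with a median of -0.30, whereas near cells had 0.40 and the Gdf5 gate 0.45. Acan had a ratio of -0.05 (95% CI -0.07 to -0.03), Matn3 one of -0.86 (95% CI -0.93 to -0.80) and Ucma one of -1.99 (95% CI -2.18 to -1.81), so the single genes ran from almost no difference to past 2-fold. Of hedgehog and PTHrP pathway genes 6 of 7 were lower, with a median of -0.43, beside -0.12 over all genes. Of interzone genes 11 of 12 were lower, with -0.33, and of Wnt pathway genes 5 of 5, with -0.24. No measured Wnt pathway gene was past 2-fold, and the TMM shift of 0.14 makes each of these medians smaller in size.

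Hypoxia genes were higher in 11 of 15 cases in the library labelled Glut3f/f, with a median of 0.36. Car9, which passed the 20 CPM minimum only through that library, had a ratio of 1.03 (95% CI 0.86 to 1.204). In near cells, which had little Car9 in control, the ratio was 3.79. The glycolysis list had a median of 0.13, with 8 of 13 higher. G2 and M phase genes were lower in 20 of 20, with a median of -0.38, beside -1.22 in the prehypertrophic gate and 0.10 in the Gdf5 gate. S phase genes, with a median of -0.16, were close to the -0.12 over all genes. Erythroid markers were lower in all 5 measured genes, with a median of -1.88; their UMIs sat mostly in the few hemoglobin-rich members already given, and with thinning before the rule 4 hemoglobin genes were higher instead. Muscle markers summed to 105, 29.4, 46 and 8.61 CPM over the 4 libraries and immediate-early genes to 4449, 6833, 6899.7 and 6861; their part in these results was not tested.

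**Figure D3:**
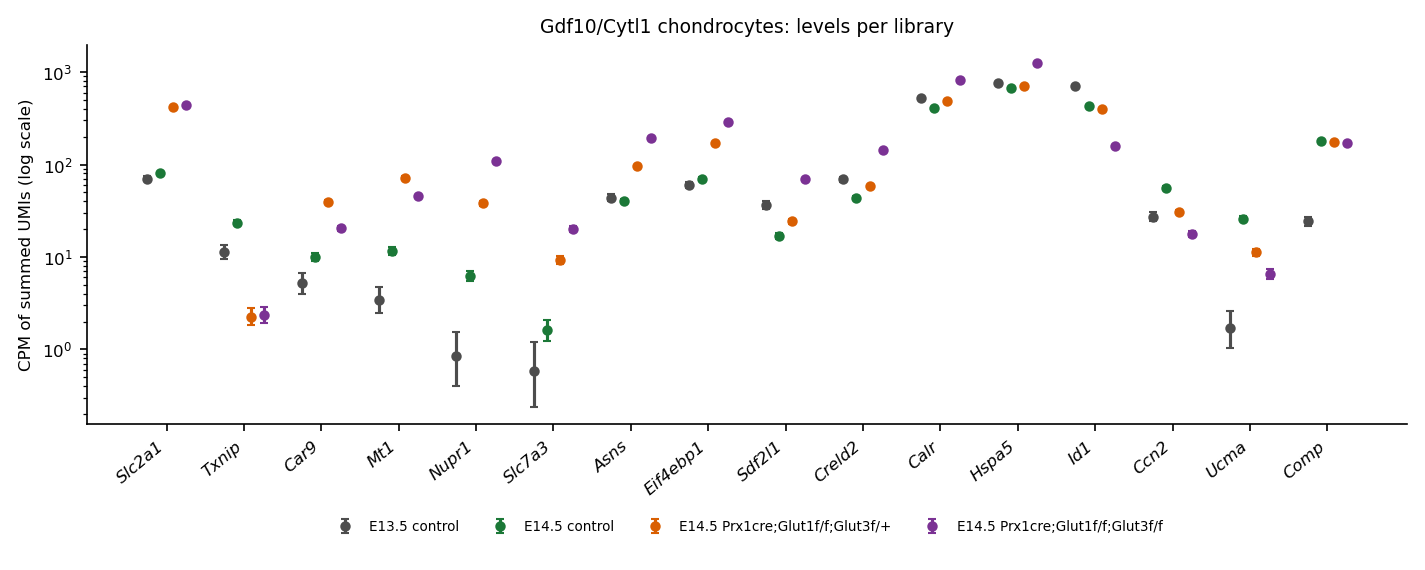
CPM on a log scale of 16 genes in the summed Gdf10/Cytl1 chondrocytes of each of the 4 libraries, with exact Poisson 95% intervals. Nupr1 spans 0.842 to 109 CPM and Id1 715 down to 159.6 CPM from the E13.5 control to the library labelled Glut3f/f.

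The differences in the library labelled Glut3f/f were uneven over cells. ATF4 target UMIs per 10000 UMIs of a member had medians of 10.1, 11.5, 11.6 and 17.6 and 90th percentiles of 17.3, 18.8, 27.6 and 43.2. In the library labelled Glut3f/+ the median was thus close to that of the E14.5 control while the upper tail was longer. ER chaperones had medians of 59.3, 51.6, 48.8 and 72.3 and 90th percentiles of 94.8, 84.1, 89.4 and 164. Hypoxia genes had medians of 16, 22.6, 21.8 and 22.8 and 90th percentiles of 31.2, 41.5, 54.6 and 50.4. For hypoxia genes both mutant libraries thus lay near the control in the median and above it in the upper tail. With 2000 UMIs drawn from each member, and 7, 69, 64 and 49 shallower members left out, the 90th percentiles were 4, 5, 6 and 9 UMIs for ATF4 targets, 20, 18, 19 and 33 for ER chaperones and 7, 9, 11 and 10 for hypoxia genes. Matrix genes had medians of 69.4, 162, 139 and 133, with 10th percentiles of 24.5, 76.2, 57.9 and 63 and 90th percentiles of 133, 246, 227 and 208, so that the E13.5 control lay lowest throughout.

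**Figure D4:**
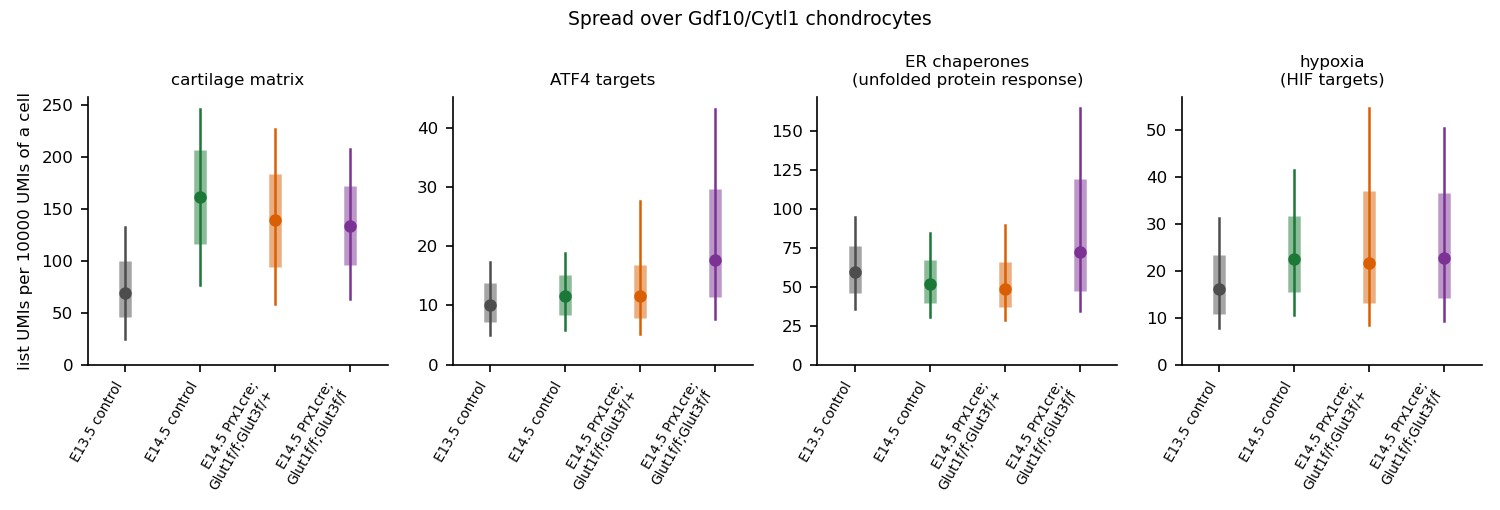
UMIs of 4 gene lists per 10000 UMIs of a cell (y axis) over the Gdf10/Cytl1 chondrocytes of each library; points are medians, thick bars the middle 50% of cells and thin lines the 10th to 90th percentiles. The upper ends for ATF4 targets (43.2) and ER chaperones (164) are highest in the library labelled Glut3f/f.

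Promoters of genes that were at least 2-fold higher in the library labelled Glut3f/f were searched for the motif of their list, since those genes moved together. Sequences came from RefSeq for GRCm38.p6 and run from 250 bases before to 50 bases after a transcript start. The ATF4 composite element TGATGNAA, on either strand, was in 1304 of 32851 promoters (3.97%) and in 3 of the 8 ATF4 targets that matched, of 11 called; those 8 genes have 11 promoters, so the 2 shares differ in unit. The ER stress element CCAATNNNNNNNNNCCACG was in 39 promoters (0.119%) and in 2 of the 5 ER chaperones that matched, of 7 called; its first 5 letters alone form the CCAAT box, a common promoter motif. A match describes the letters and not a bound site. Shown are the 2 ATF4 targets with a match and the most UMIs and the 2 chaperones with a match, read 5′ to 3′ on the strand of the gene with the match in capitals: Asns, chr6:7693160-7693459, minus strand; Nupr1, chr7:126625421-126625720, minus strand; Calr, chr8:84846882-84847181, minus strand; Creld2, chr15:88819396-88819695, plus strand. In Asns the match reads forward at bases -23 to -16, and in Nupr1, Calr and Creld2 in reverse at -110 to -103, -162 to -144 and -126 to -108.
Asns: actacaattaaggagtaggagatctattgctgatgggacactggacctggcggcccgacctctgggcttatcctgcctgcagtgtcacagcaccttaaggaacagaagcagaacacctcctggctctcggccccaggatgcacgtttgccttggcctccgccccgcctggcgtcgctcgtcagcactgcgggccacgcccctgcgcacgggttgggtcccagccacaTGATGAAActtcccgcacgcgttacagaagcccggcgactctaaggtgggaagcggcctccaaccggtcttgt
Nupr1: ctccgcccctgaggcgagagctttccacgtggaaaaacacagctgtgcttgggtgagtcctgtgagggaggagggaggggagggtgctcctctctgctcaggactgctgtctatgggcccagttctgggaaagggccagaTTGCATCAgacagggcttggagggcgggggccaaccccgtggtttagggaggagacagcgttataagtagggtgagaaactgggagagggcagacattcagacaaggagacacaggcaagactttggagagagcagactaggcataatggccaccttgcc
Calr: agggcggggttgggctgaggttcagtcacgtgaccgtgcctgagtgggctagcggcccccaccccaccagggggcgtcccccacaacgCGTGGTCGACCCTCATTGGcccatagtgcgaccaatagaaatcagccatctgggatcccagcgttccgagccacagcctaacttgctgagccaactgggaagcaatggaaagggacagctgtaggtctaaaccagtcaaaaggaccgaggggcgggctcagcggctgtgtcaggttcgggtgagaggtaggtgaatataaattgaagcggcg
Creld2: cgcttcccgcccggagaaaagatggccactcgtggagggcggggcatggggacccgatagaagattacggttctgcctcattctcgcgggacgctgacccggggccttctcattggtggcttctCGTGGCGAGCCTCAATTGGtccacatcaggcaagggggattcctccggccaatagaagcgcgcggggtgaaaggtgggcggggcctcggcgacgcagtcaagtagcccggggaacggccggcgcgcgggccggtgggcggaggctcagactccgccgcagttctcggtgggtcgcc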

How the data were processed

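The deposited matrices hold counts, which the authors made with Cell Ranger from 10x 3′ kit v3.1 libraries and the mm10 genome; their headers name version 6.1.2, and the submitters' notes name Seurat 3 for later steps, whose output was not used here. Of 32285 gene identifiers 32235 (99.8%) matched the GRCm38 annotation. Cells were filtered and chosen by the rule given above, and UMIs of repeated gene names were summed. Genes were eligible at 20 CPM and 20 UMIs in either group, so some passed only through the group where they were high. Ratios used a prior count of 0.5, and a gene is called when it passes 2-fold. Rule genes, sex-linked genes and mitochondrially encoded genes were left out of the counts of genes. Members and lists were chosen with earlier results of these data known.

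Named genes are the 15 highest and 15 lowest per comparison, by the smallest ratio over the 4 libraries within libraries and by the ratio between libraries, beside genes of the fixed lists; other genes were chosen after their values were seen. Doublets were kept, and an alternative left out the 5% of cells with the highest Scrublet scores. Other alternatives changed the cell filter, the UMI minimum of the rule, the scaling, the averaging, the gene minimum and the depth of cells (2000 UMIs, seed 7). The ratio code was tested on simulated data. Work was done in Python 3.11.15 with numpy 2.4.6, scipy 1.17.1, pandas 2.3.3, scanpy 1.11.5 and matplotlib 3.10.9.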

Additional observations from a re-analysis of the deposited data

Results flagged for a closer look

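Each of these stands out because the same comparison runs in opposite directions in 2 groups of cells; no difference between the groups was tested. For the hemoglobin genes the direction in members rests on few cells: 1 member of the E13.5 and 9 of the E14.5 control held 89.96% and 95.1% of members' hemoglobin UMIs. Hba-x, an embryonic hemoglobin gene, had a log2 ratio of E14.5 to E13.5 control of -6.40 in the Gdf5 gate and 2.68 in Gdf10/Cytl1 chondrocytes, where it turned to -1.87 with thinning before the rule and to -1.69 without cells carrying UMIs of other types. Hbb-y, another embryonic hemoglobin gene, had -6.36 in the Gdf5 gate and 2.49 in Gdf10/Cytl1 chondrocytes, where the same alternatives gave -1.98 and -2.0, of the same sign as the Gdf5 gate values without those alternatives. Nupr1 had a log2 ratio of the library labelled Glut3f/+ to the E14.5 control of -0.49 in the Gdf5 gate and 2.61 in Gdf10/Cytl1 chondrocytes.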

How the results depend on the processing

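Of 571 list medians under the alternatives 416 stayed, 150 moved and 5 reversed. Of 110 shares and counts 69 stayed and 41 moved, and of 1140 single-gene ratios 881 stayed, 250 moved and 9 reversed. Shares were judged by their interval and counts by a fixed fold. Ratios were judged by the half-width of their interval, and list medians by the median half-width over their genes. List medians were rerun for the library comparisons only. Gene counts and single genes were rerun for those, for near cells and for Gdf10-only against Cytl1-only cells. Beyond the TMM shifts given above, contrasts with the prehypertrophic and Gdf5 gates were not rerun. Reversed means a change of sign from a list median of at least 0.10 in size or from a gene past 2-fold. Smaller list medians that changed sign, such as those given beside the TMM shifts, were counted as moved or stayed. The cause was not tested except where the alternative fixes it. Shares, in library order, were as follows. With 1000 to 6000 genes and at most 5% mitochondrial UMIs they were 12%, 51.3%, 42.4% and 51%, with 3 or more Gdf10 and Cytl1 UMIs 7.81%, 44.7%, 34.8% and 40.8%, and with 1 or more 15.8%, 51.6%, 43.7% and 53.2%. Thinning to 2000 UMIs gave 4.62%, 35.5%, 25.5% and 27.8%. Without the 5% highest Scrublet scores the library labelled Glut3f/+ was at 38%. Without cells carrying other types' UMIs, chosen after seeing the data, the first 3 libraries were at 11.5%, 49.5% and 40.3%.

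Genes 2-fold higher than near cells in all libraries numbered 30 with 1 or more UMIs and 0 with thinning; lower genes numbered 45 with 3 or more UMIs, 12 with 1 or more, 0 with thinning, 47 without high Scrublet scores and 57 with a minimum of 100 UMIs. Gdf10-only cells had 0 higher genes with thinning, 8 without high Scrublet scores, 2 with TMM and 2 without other types' UMIs, and 2, 7 and 7 lower genes with thinning, without high Scrublet scores and without other types' UMIs. With a minimum of 100 UMIs and no CPM minimum, more genes were tested, and the counts became 384 higher and 355 lower for age, 65 and 46 for the library labelled Glut3f/+, and 104 and 125 for the library labelled Glut3f/f, where TMM left 18 lower.

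Reversed were Epyc against near cells with thinning (-0.33), and for age Hba-x (-1.87 with thinning, -1.69 without other types' UMIs), Hbb-y (-1.98 and -2.0), the Wnt list (-0.02 with thinning, -0.27 at 100 UMIs), glycolysis and ER chaperones (0.06 and 0.06 with TMM) and cell death genes (0.08 at 100 UMIs). In the library labelled Glut3f/f thinning reversed Hbb-bt (1.26), Hba-a1 (1.40), Hba-a2 (1.24) and Hbb-bs (1.18).

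Groups of 1 library give no measure of variation between embryos. The rule needs UMIs of low-abundance genes, so depth decides membership for many cells, and contrasts with near cells depend on it. In the main counts of genes, those under 20 CPM were judged only where the other group passed. Some genes named in the text were under 20 CPM in both groups. Sex, pooling and genotype cannot be told apart, and RNA released from other cells was not modelled.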

Other observations

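Among secreted regulators of the cartilage ends, Pthlh, the gene of PTHrP, was at 12.4, 15.8, 13 and 12.1 CPM in Gdf10/Cytl1 chondrocytes, 23.3, 25.8, 27.5 and 17.5 in near cells and 1.97, 1.17, 1.06 and 1.301 in the prehypertrophic gate. Sfrp5, a secreted Wnt inhibitor, was at 3.28, 15, 10.5 and 8.50 in Gdf10/Cytl1 chondrocytes and 0.629, 2.36, 4.17 and 2.997 in near cells. Ptch1, a receptor and target of hedgehog signalling, was at 214, 110.4, 110.1 and 91 in Gdf10/Cytl1 chondrocytes and 359, 186, 172 and 83.8 in the prehypertrophic gate. Pthlh thus stood below the near cells and above the prehypertrophic gate in every library, and Ptch1 in members was about equal in the E14.5 control and the library labelled Glut3f/+. Fibin, a secreted protein that leads the tendon marker list, was at 475, 549, 502 and 457 CPM against 242, 277, 288 and 229 in near cells. That list of 6 genes summed to 517, 569.99, 526 and 476 CPM in members, most of it Fibin. Scx, of the same list, went the other way and was lower in members than in near cells in every library. Fgfr3 in near cells was at 20.8, 16.9, 55.5 and 97.1 CPM and so was higher in both mutant libraries than in either control, while in Gdf10/Cytl1 chondrocytes the 4 libraries ran from 73.8 to 98.3.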
